A study of Ovis aries with 20 samples.

Results

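The 10 circadian clock genes described here are *PER1*, *PER2*, *PER3*, *CRY1*, *CRY2*, *NR1D1*, *NR1D2*, *BHLHE40*, *BHLHE41* and *CLOCK*. They were taken by gene name from a deposited table of 28524 genes, of which 24823 had a value above 0 in some library. All 10 names were found, and all 10 passed the filter on low values in each comparison. The libraries came from ovaries of sheep aged 21 months. In the prenatal T group (sheep 209, 210, 230, 276 and 315) the mother had been injected intramuscularly with 100 mg testosterone propionate (1.2 mg/kg) 2 times per week between days 30 and 90 of gestation, and in the control group (sheep 139, 224, 244, 246 and 268) she had received vehicle on the same schedule. In both groups estrus had been synchronised by 2 injections of 10 mg prostaglandin F2α given 11 days apart, and the ovaries were taken 18 h after the last one. The time of day of collection is not given in the labels. Granulosa cells (the inner, estradiol-making layer of the follicle) and theca cells (its outer, androgen-making layer) were microdissected from 14 µm cryosections of several antral follicles and pooled for each animal. A library is therefore a mixture of follicles of 1 animal. RNA sequencing gave 19 libraries used here: granulosa cells of 5 prenatal T and 4 control animals, and theca cells of 5 prenatal T and 5 control animals. Both layers were at hand for 9 animals.

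The circadian clock is a loop of transcription factors that runs in nearly every cell. CLOCK and its partner BMAL1 (gene *ARNTL*) bind E-box sequences and switch on the *PER* and *CRY* genes, whose proteins later block CLOCK and BMAL1. The same pair switches on *NR1D1* and *NR1D2*, which encode REV-ERB repressors of *ARNTL*, and *BHLHE40* and *BHLHE41*, which encode DEC repressors that compete for E-boxes. In the ovary of laboratory rodents clock genes cycle in granulosa and theca cells and their phase responds to luteinizing hormone.

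Depth was 12.7 to 26.0 M recovered reads per library. Values are normalized counts, that is gene counts over the size factor of each library, and are compared within a gene only, since gene lengths were not used. The scarcest member was *PER3*, at 17 to 123 reads in granulosa libraries. Both libraries of prenatal T sheep 209 stood apart. In its granulosa library *AMH* and *FSHR*, defining genes of granulosa cells, were at 0, and *CYP17A1*, an enzyme of androgen synthesis, was at 0 in its theca library. The mean log2 level of 8 granulosa markers was 3.13 in its granulosa library. It was 11.7 to 12.7 in those of the other prenatal T animals and 11.1 to 12.6 in control ones. In the same order, that of 6 epithelium markers was 13.0, 3.87 to 5.17 and 2.66 to 4.77. That of 5 immune cell markers was 9.79, 4.45 to 7.99 and 6.26 to 7.41. In theca libraries, again in this order, that of 8 theca markers was 10.3, 13.9 to 14.2 and 14.0 to 14.3. Epithelium markers were there at 10.9, 3.31 to 4.47 and 2.42 to 4.15, and immune cell markers at 10.5, 6.38 to 8.20 and 7.38 to 8.29. The libraries of sheep 209 are named here by the layer in their labels, and medians, ranges and counts of animals include them unless stated. The differences of the 10 clock genes between layers and between treatments are given with and without this animal. Granulosa markers were also present in the other theca libraries (*AMH* at 327 to 1569), so the layers are enriched rather than pure, and a lower value in such bulk samples can mean fewer cells of a type or less RNA per cell, which cannot be told apart.

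**Figure D1:**
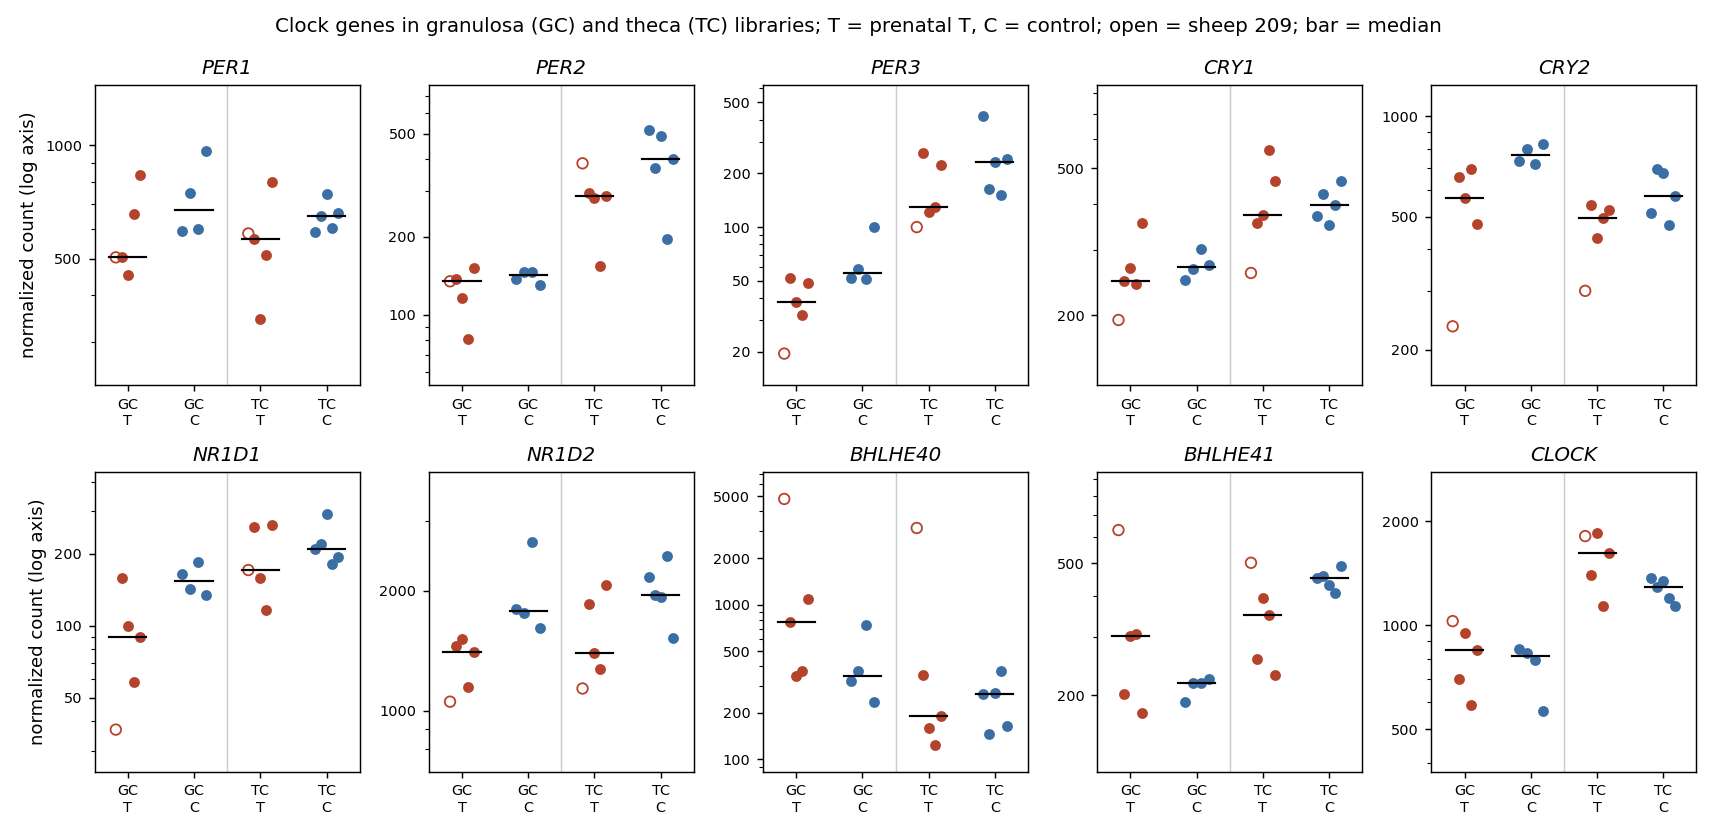
Normalized counts of the 10 clock genes (log axis, 1 panel per gene) in granulosa (GC) and theca (TC) libraries of prenatal T (T, red) and control (C, blue) animals; each point is 1 library, open points are sheep 209 and bars are medians. *PER2*, *PER3* and *CLOCK* separate the layers, whereas prenatal T and control points overlap in most panels. The share of all genes that separate the layers was not counted.

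Granulosa against theca cells was the comparison in which the clock genes differed most. With the animal as a block, *BHLHE40* and *CRY2* were higher in granulosa cells, *PER3*, *PER2*, *NR1D1*, *CLOCK*, *BHLHE41* and *CRY1* were lower, and *PER1* and *NR1D2* did not pass the test (limma, adjusted p under 0.05). The layers differed in much of the transcriptome: 57.2% of 16269 genes passed, 29.2% higher and 28% lower in granulosa cells. The 8 of 10 members that passed are read against that share. The median log2 difference of the members was -0.60, against 0.03 over all genes tested.

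Among the *PER* genes, whose products form the repressor complex with CRY, *PER3* had the largest log2 difference between layers. *PER3* ranged between 19.6 and 99.7 in granulosa libraries (median 51.3) and between 100.0 and 417 in theca libraries (median 193). The ranges did not overlap but nearly met, at 99.7 in granulosa cells of control sheep 268 and 100.0 in theca cells of prenatal T sheep 209. The share of all genes whose layers separate in this way was not counted, here or for *PER2* and *CLOCK* below. Within animals the granulosa value was 0.196 to 0.414 of the theca value, lower in granulosa cells in 9 of 9 animals. The log2 difference was -1.88 ± 0.15 (SE, limma adjusted p = 8.45e-09), or -1.87 ± 0.15 without sheep 209.

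*PER2* spanned 80.2 to 152 in granulosa libraries (median 138) and 155 to 515 in theca libraries (median 332). Here too the ranges did not overlap, and 9 of 9 animals had less in granulosa cells. The log2 difference was -1.24 ± 0.13 (limma adjusted p = 2.91e-07), or -1.21 ± 0.14 without sheep 209. *PER1*, the family member that responds fastest to cAMP and light signals, was at 454 to 964 in granulosa libraries (median 598) and 346 to 801 in theca libraries (median 594). The 2 layers overlapped over most of this range. The *PER1* difference was 0.10 ± 0.09 (limma adjusted p = 0.374, or 0.14 ± 0.10 without sheep 209), with granulosa cells higher in 5 animals and theca cells in 4.

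The cryptochromes, the other arm of the repressor complex, differed in opposite directions. *CRY1* had a median of 268 in granulosa libraries (194 to 356) and 386 in theca libraries (261 to 561), and its log2 difference was -0.58 ± 0.09 (limma adjusted p = 2.80e-05), or -0.60 ± 0.09 without sheep 209. All 9 animals had less *CRY1* in granulosa cells. *CRY2* had a median of 693 in granulosa libraries (235 to 828.6) and 519 in theca libraries (299.9 to 698), with a difference of 0.25 ± 0.11. Its call was marginal (limma adjusted p = 0.0495). It was higher in granulosa cells in 7 of 9 animals, the exceptions being prenatal T sheep 209 and 315 with granulosa to theca ratios of 0.783 and 0.908. Without sheep 209 the *CRY2* difference was 0.32 ± 0.08 (limma adjusted p = 0.0013), whereas leaving out sheep 139, 210, 230, 244, 246, 268 or 276 ended the call (limma adjusted p = 0.0643 to 0.132).

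Of the REV-ERB receptors, *NR1D1* had a median of 135 in granulosa libraries (36.8 to 184) and 202 in theca libraries (117 to 293). Its log2 difference was -0.85 ± 0.16 (limma adjusted p = 0.000182), or -0.73 ± 0.14 without sheep 209. Granulosa cells had less in 8 of 9 animals, and in control sheep 246 the layers were near equal, with a ratio of 1.02. *NR1D2* had a median of 1509.6 in granulosa libraries (1053 to 2654) and 1887 in theca libraries (1136 to 2451). The *NR1D2* difference was -0.12 ± 0.08 (limma adjusted p = 0.205, or -0.13 ± 0.08 without sheep 209), and granulosa cells were higher in 3 animals and theca cells in 6. In the RefSeq gene table *NR1D1* overlaps *THRA*, *CRY1* overlaps 3 genes (*MTERF2* among them), *BHLHE41* overlaps *SSPN* and *BHLHE40* overlaps a long non-coding RNA gene. The strand setting of the counting is not given, so reads in the shared stretches cannot be assigned here.

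*CLOCK*, the activator, was also lower in granulosa cells. Its median was 834 in granulosa libraries (565 to 1028) and 1355 in theca libraries (1136 to 1854), with no overlap (share of all genes not counted). The granulosa to theca ratio lay between 0.497 and 0.664 in the 9 animals. The log2 difference was -0.83 ± 0.07 (limma adjusted p = 1.46e-08), or -0.85 ± 0.07 without sheep 209.

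The DEC repressors also went opposite ways. *BHLHE40* had a median of 372 in granulosa libraries (234 to 4813) and 228 in theca libraries (124.9 to 3125). The highest value in each layer was that of sheep 209. Within animals the granulosa value was 1.39 to 5.76 times the theca value, higher in 9 of 9, and the log2 difference was 1.07 ± 0.30 (limma adjusted p = 0.0051), or 1.16 ± 0.19 without sheep 209 (limma adjusted p = 4.57e-05). *BHLHE41* had a median of 218 in granulosa libraries (176 to 631) and 418 in theca libraries (231 to 502). Its log2 difference was -0.63 ± 0.11 (limma adjusted p = 0.000105), lower in granulosa cells in 8 of 9 animals, the exception being sheep 209, and it was -0.69 ± 0.08 without that animal. The 8 members that passed between layers passed without sheep 209 too. The calls of *BHLHE40* and *CRY2* were lost when the animal was not used as a block (limma adjusted p = 0.163 and 0.260), and the 6 genes lower in granulosa cells still passed.

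**Figure D2:**
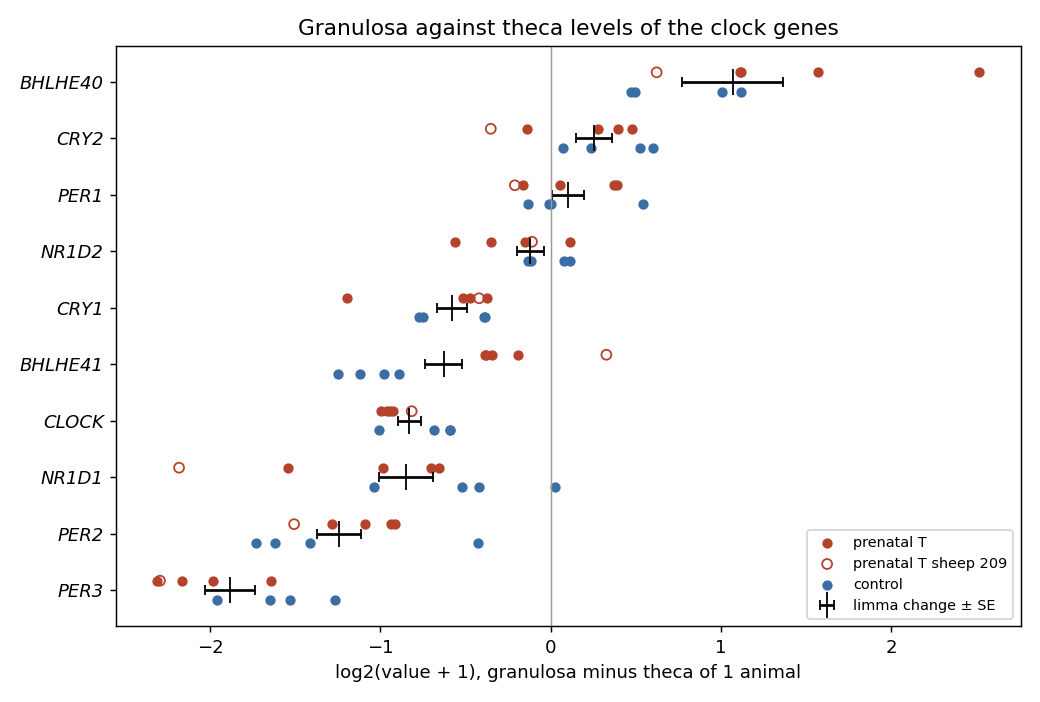
Granulosa minus theca difference of log2(value + 1) within each of 9 animals (x axis) for each clock gene (y axis), with prenatal T animals in red (sheep 209 open) above control animals in blue, and the limma difference ± SE in black. All 9 points of *PER3*, *PER2*, *CLOCK* and *CRY1* lie below 0, and all 9 of *BHLHE40* lie above 0.

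In prenatal T animals alone, 6 members passed between layers, *BHLHE40* higher and 5 lower in granulosa cells (*PER3*, *PER2*, *NR1D1*, *CLOCK* and *CRY1*), where 45.3% of all genes passed (21.9% higher and 23.4% lower). Without sheep 209, 1 member passed as higher and 6 as lower in prenatal T animals, *BHLHE41* among the lower. In that fit 8866 of 16021 genes passed. In control animals alone 5 passed, all lower in granulosa cells (*PER3*, *PER2*, *BHLHE41*, *CLOCK* and *CRY1*), where 40.3% of all genes passed (20.2% lower). Without sheep 209, whose libraries also enter the spread of the control contrast, 8 members passed in control animals, with *BHLHE40* and *CRY2* higher and *NR1D1* lower in granulosa cells in addition, where 51.4% of all genes passed.

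Other genes of the loop were read from a list of 18, of which 16 were in the table and 15 were tested. Between layers 11 of these 15 passed by limma, 6 higher and 5 lower in granulosa cells. Those higher included *NPAS2*, a substitute for CLOCK (1.41 ± 0.42), *CIART*, a repressor of CLOCK and BMAL1 (0.83 ± 0.17), *TIMELESS* (0.82 ± 0.26), *BTRC*, which marks PER for degradation (0.67 ± 0.14), and the PER kinase *CSNK1D* (0.21 ± 0.08). Those lower included the D-box factors *DBP* (-1.11 ± 0.14), *HLF* (-0.95 ± 0.19) and *TEF* (-0.34 ± 0.10), and *ARNTL2* (-0.86 ± 0.28). Each gene named here as higher or lower passed without sheep 209 too, where *NPAS2* was at 1.89 ± 0.12 and *ARNTL2* at -0.64 ± 0.22. *ARNTL*, the partner of CLOCK, was alike in value between layers, at a median of 258 in granulosa and 255 in theca libraries, with a difference of 0.01 ± 0.10 (limma adjusted p = 0.932).

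Between prenatal T and control granulosa cells, no clock gene passed the test. The values of most members lay lower in prenatal T animals: 7 of 10 log2 differences were negative, with a median of -0.25 against -0.01 over all 14724 genes tested. Without sheep 209, 4 of 10 were positive, and the median of the members was again -0.25. The share of negative differences over all genes was not counted. None of the 14724 genes passed in limma or edgeR (622 and 835 at an unadjusted p under 0.05), and DESeq2 called 16, with no member among them.

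The REV-ERB gene *NR1D2* was at 1053, 1455, 1509.6, 1147 and 1403 in granulosa cells of prenatal T sheep 209, 210, 230, 276 and 315, against 1795, 1754, 2654 and 1609 in those of control sheep 224, 244, 246 and 268. Each prenatal T library lay below each control library. The log2 difference was -0.56 ± 0.18 (limma unadjusted p = 0.0122, adjusted p = 0.875), and -0.48 ± 0.17 without sheep 209 (limma adjusted p = 0.704). *CRY2* showed the same separation, at 235, 658, 570.2, 693 and 476 in prenatal T animals, against 734, 796, 718 and 828.6 in controls. Its log2 difference was -0.64 ± 0.30 (limma adjusted p = 0.875), and it moved to -0.37 ± 0.14 without sheep 209, which had the lowest value (limma adjusted p = 0.704). *NR1D2* and *CRY2* were 2 of 10 members in which all prenatal T libraries lay below all control libraries, against 1.69% of all genes tested, and they did so also without sheep 209, against 2.7%.

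*NR1D1* was at 36.8, 158, 99.9, 58.4 and 90.0 in granulosa cells of prenatal T animals, against 164, 142, 184 and 135 in controls. The groups overlapped through sheep 210. The difference was -0.96 ± 0.40 (limma unadjusted p = 0.0378, adjusted p = 0.875), or -0.69 ± 0.30 without sheep 209 (limma adjusted p = 0.712). With *NR1D2* it made 2 of 10 members at an unadjusted p under 0.05, where 4.22% of all genes were. *PER3* was at 19.6, 51.7, 38.2, 32.1 and 48.5 in prenatal T animals, against 51.7, 58.5, 51.3 and 99.7 in controls. The groups overlapped narrowly, prenatal T sheep 210 at 51.7 lying above control sheep 246 at 51.3. The *PER3* difference was -0.78 ± 0.37 (limma adjusted p = 0.875), or -0.57 ± 0.31 without sheep 209.

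The remaining members of the loop were closer. *PER1* lay between 454 and 832 in prenatal T animals and between 591 and 964 in controls (-0.30 ± 0.22, -0.25 ± 0.23 without sheep 209 and -0.15 ± 0.22 without control sheep 268). *PER2* lay between 80.2 and 152 in prenatal T animals and between 129.7 and 147 in controls (-0.21 ± 0.23, -0.24 ± 0.23 without sheep 209 and -0.06 ± 0.19 without prenatal T sheep 276). In both *PER* genes the prenatal T range reached below the control range and overlapped it. *CRY1* lay between 194 and 356 in prenatal T animals and between 249.6 and 304 in controls (-0.08 ± 0.19, or 0.02 ± 0.16 without sheep 209). *CLOCK* lay between 589 and 1028 in prenatal T animals and between 565 and 854 in controls (0.10 ± 0.20, or 0.01 ± 0.19 without sheep 209). None of these 4 passed (limma adjusted p = 0.875 to 0.925), and the groups of *CRY1* and *CLOCK* overlapped too.

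Both DEC genes had higher mean values in granulosa cells of prenatal T animals, and both rested in part on sheep 209. *BHLHE40* was at 4813, 767, 347, 372 and 1094 in prenatal T animals, against 319.6, 371, 744 and 234 in controls (1.21 ± 0.74, limma adjusted p = 0.875). Without sheep 209 the difference was 0.60 ± 0.44. *BHLHE41* was at 631, 202, 302, 306 and 176 in prenatal T animals, against 191, 218, 218 and 225 in controls (0.45 ± 0.34, limma adjusted p = 0.875, or 0.17 ± 0.21 without sheep 209). *BHLHE41* averaged 323 ± 181 (SD, n = 5) in prenatal T animals, on both sides of the controls, which averaged 213 ± 14.9 (SD, n = 4). *BHLHE40* is an early response gene, and the mean log2 level of 8 immediate early genes (*FOS*, *FOSB*, *EGR1*, *JUNB*, *ATF3*, *NR4A1*, *IER2* and *DUSP1*) was 11.0, 8.50, 7.44, 6.93 and 9.17 in the prenatal T libraries, against 7.74, 7.98, 7.75 and 7.18 in the control libraries. Sheep 209, 315 and 210 were the highest in both measures. The part of this response in the *BHLHE40* values was not tested.

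Among the other clock genes in granulosa cells, *ARNTL* lay above every control in each prenatal T animal, at 368, 299, 259.6, 258 and 416 in prenatal T animals, against 229, 245, 168 and 167 in controls. *DBP*, a target of CLOCK and BMAL1, lay below every control in each prenatal T animal, at 122, 134, 119, 133 and 141 in prenatal T animals, against 252, 181, 205 and 188 in controls. The groups of both genes were thus apart, as were those of 2.41% of all genes. The difference of *ARNTL* was 0.66 ± 0.22 and that of *DBP* -0.66 ± 0.18 (limma adjusted p = 0.875 each). Without sheep 209 they were 0.60 ± 0.21 and -0.64 ± 0.17, and the groups stayed apart. DESeq2 gave *DBP* an adjusted p of 0.0533, and the adjusted p over the other settings lay between 0.180 and 0.979. None of the 15 other clock genes passed. Of the members with less RNA in granulosa than in theca cells, *PER3*, *NR1D1*, *PER2* and *CRY1* had negative differences with all libraries, as had *DBP*. *BHLHE41* and *CLOCK* also had less RNA in granulosa cells, but their differences were positive. *CRY2* and *BHLHE40* had more RNA in granulosa cells, with a negative and a positive difference. *NR1D2* did not pass between layers. The mean log2 level of 8 theca markers in granulosa libraries was 7.97 in the one of sheep 209, 10.1 to 11.0 in those of the other prenatal T animals and 10.7 to 11.6 in those of controls. Its part in the differences was not tested.

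**Figure D3:**
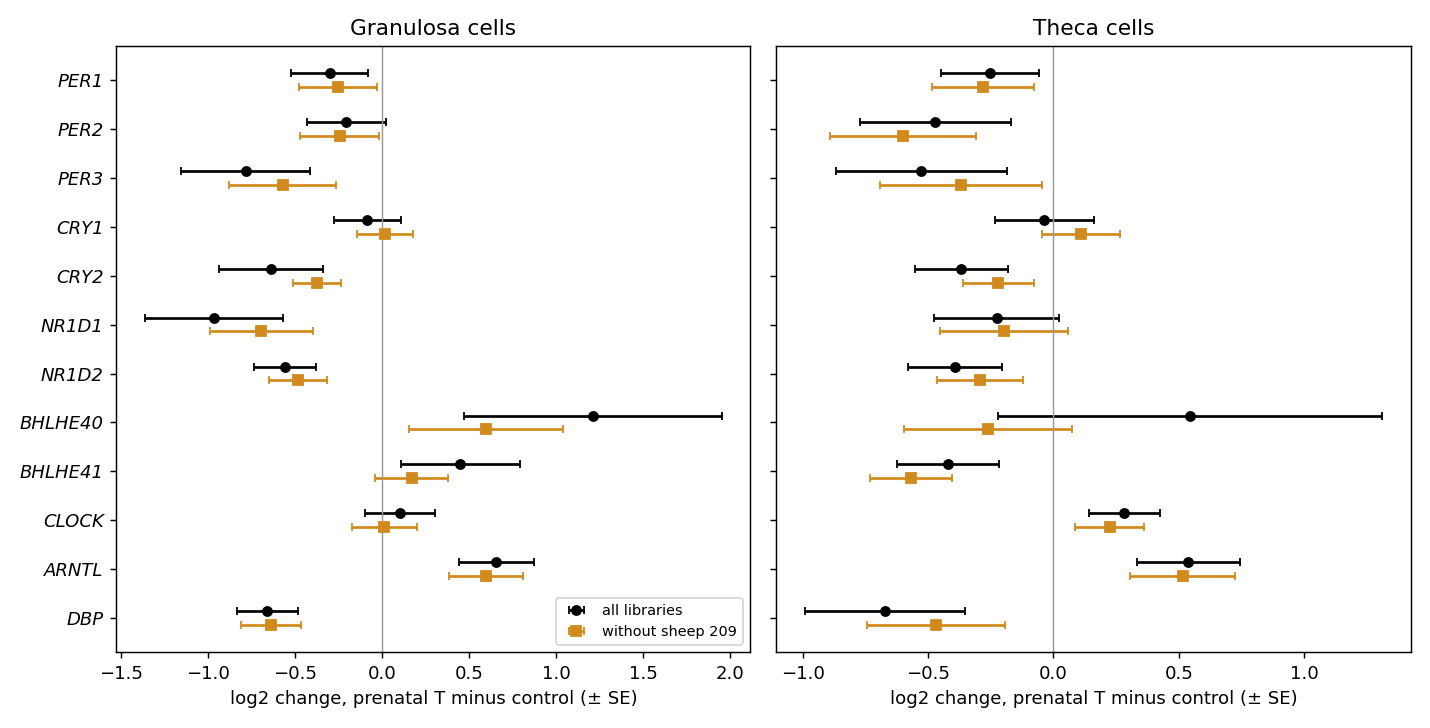
Log2 difference, prenatal T minus control (x axis, ± SE from limma), of the 10 clock genes and of *ARNTL* and *DBP* in granulosa cells (left) and theca cells (right), with all libraries (black circles) and without sheep 209 (orange squares). In granulosa cells *NR1D1*, *NR1D2*, *CRY2*, *PER3*, *PER1*, *PER2* and *DBP* lie below 0 in both fits. *ARNTL*, *BHLHE40*, *BHLHE41* and *CLOCK* lie above 0 in both, and *CRY1* changes side.

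In theca cells no clock gene passed either. Of the 10 members 8 had a negative log2 difference, with a median of -0.31 against 0.00 over all 15492 genes. Without sheep 209, 2 of 10 were positive, and the median of the members was -0.27 against -0.01 over 15304 genes. The share of negative differences over all genes was not counted in theca cells either. None of the 15492 genes passed in limma or edgeR (1192 and 1561 at an unadjusted p under 0.05), and DESeq2 called 9, with no member among them. No member separated the groups when all libraries were used, where 2.26% of all genes did. The theca libraries come from the same animals as the granulosa libraries, so the layers are not independent views of the treatment.

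*NR1D2* was at 1136, 1852, 1394, 1272 and 2073 in theca cells of prenatal T sheep 209, 210, 230, 276 and 315, against 2159, 1949, 1923, 2451 and 1525 in those of control sheep 139, 224, 244, 246 and 268. The groups overlapped through prenatal T sheep 315 and control sheep 268. The difference was -0.39 ± 0.19 (limma adjusted p = 0.644), or -0.29 ± 0.17 without sheep 209. *NR1D1* was at 171, 258, 158, 117 and 264 in prenatal T animals, against 209, 219.5, 293, 181 and 194 in controls (-0.23 ± 0.25, limma adjusted p = 0.790, or -0.20 ± 0.26 without sheep 209). *CRY2* was at 299.9, 543, 433, 498 and 525 in prenatal T animals, against 514, 698, 676, 472 and 575 in controls (-0.37 ± 0.19, limma adjusted p = 0.656). Without sheep 209, which had the lowest *CRY2* value, its difference was -0.22 ± 0.14 (limma adjusted p = 0.528). Both genes overlapped between groups.

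*BHLHE41* was at 502, 257, 394, 349 and 231 in theca cells of prenatal T animals, against 452, 457, 431, 406 and 489.9 in controls. Sheep 209 was higher than every control, and the other 4 prenatal T animals were lower than every control. The difference was -0.42 ± 0.20 (limma adjusted p = 0.649). Without sheep 209 it was -0.57 ± 0.16 (limma unadjusted p = 0.0054, adjusted p = 0.371), and *BHLHE41* was then the 1 member of 10 with all prenatal T libraries below all controls, against 2.08% of all genes. The mean log2 level of 8 granulosa markers, which mark the layer with less *BHLHE41*, was 9.56 to 10.7 in theca libraries of these 4 prenatal T animals, against 8.87 to 10.2 in those of controls. Its part in the difference was not tested.

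*BHLHE40* was at 3125, 353, 160.1, 124.9 and 190.0 in theca cells of prenatal T animals, against 267, 147, 267, 370.1 and 165 in controls. Sheep 209 alone stood above the control range. The difference was 0.54 ± 0.77 (limma adjusted p = 0.833) and turned to -0.26 ± 0.34 without sheep 209. The mean log2 level of the immediate early genes was 11.3 in the theca library of sheep 209, 7.72 to 8.49 in those of the other prenatal T animals and 7.63 to 8.13 in those of controls.

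*PER2* lay between 155 and 385 in theca cells of prenatal T animals and between 197 and 515 in those of controls (-0.47 ± 0.30, or -0.60 ± 0.29 without sheep 209). *PER3* lay between 100.0 and 260.4 in prenatal T animals and between 150.4 and 417 in controls (-0.53 ± 0.34, or -0.37 ± 0.32 without sheep 209). *PER1* lay between 346 and 801 in prenatal T animals and between 587 and 744 in controls (-0.25 ± 0.20, or -0.28 ± 0.20 without sheep 209). In all 3 the groups overlapped. *CRY1* lay between 261 and 561 in prenatal T animals and between 351 and 462 in controls (-0.04 ± 0.20, or 0.11 ± 0.16 without sheep 209). *CLOCK* lay between 1136 and 1854 in prenatal T animals and between 1138 and 1366 in controls (0.28 ± 0.14, or 0.22 ± 0.14 without sheep 209). None of these 5 passed (limma adjusted p = 0.655 to 0.966). *ARNTL* had a difference of 0.54 ± 0.20 and *DBP* one of -0.67 ± 0.32 in theca cells (limma adjusted p = 0.644 each), and both overlapped between groups.

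**Figure D4:**
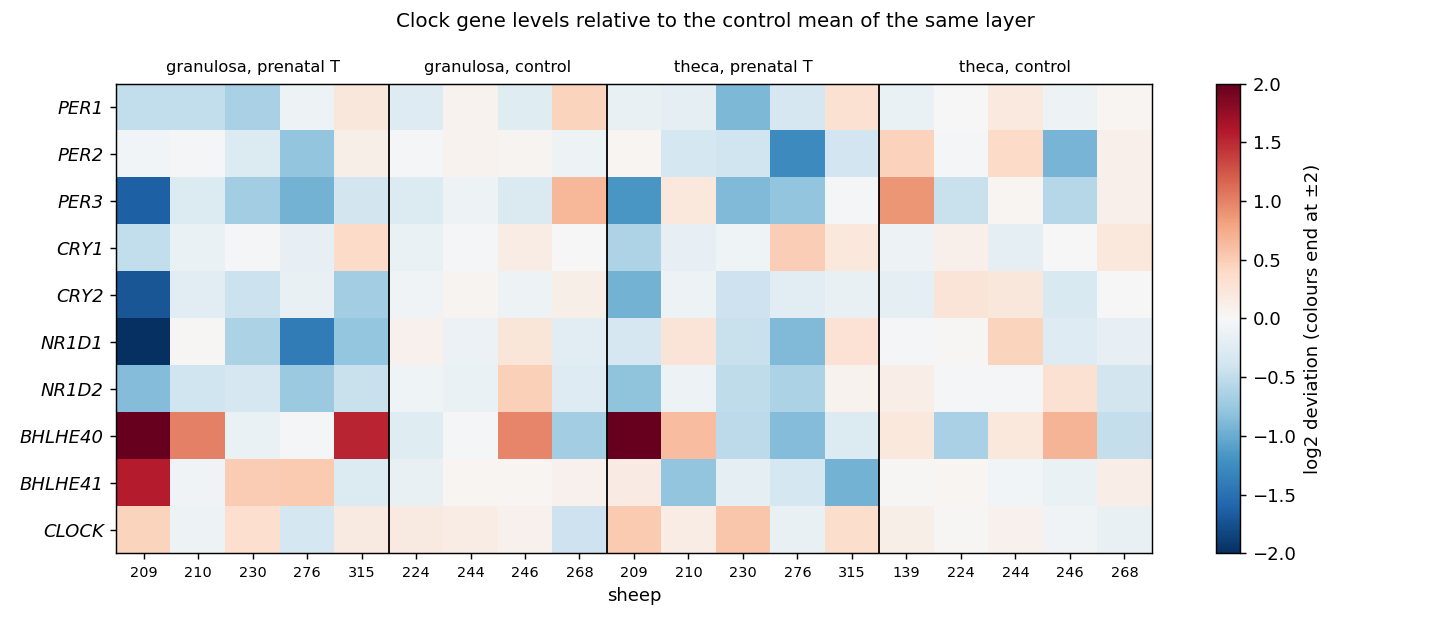
Log2 deviation of each library (columns, sheep number below) from the control mean of its layer for the 10 clock genes (vertical axis); red is above and blue below the control mean, and colours end at ±2. The columns of sheep 209 hold the strongest colours, dark red for *BHLHE40* in both layers and dark blue for *NR1D1* and *CRY2* in granulosa cells.

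The difference of the prenatal T effects between layers was tested directly, with the animal as a block, and 0 of 16269 genes passed by limma or edgeR (881 and 794 at an unadjusted p under 0.05). *BHLHE41* stood out by its values. Its granulosa to theca ratio was 1.26, 0.787, 0.767, 0.876 and 0.764 in prenatal T sheep 209, 210, 230, 276 and 315, against 0.419, 0.507, 0.538 and 0.458 in control sheep 224, 244, 246 and 268. Every prenatal T animal lay above every control, with and without sheep 209. It was the 1 member of 10 whose within-animal differences were apart, against 2.02% of all genes in either direction and 0.756% in this one (4.87% and 1.43% without sheep 209). In prenatal T animals the layers differed by -0.20 ± 0.15 (limma adjusted p = 0.307) and in controls by -1.06 ± 0.16 (limma adjusted p = 7.03e-05). The difference of these values was 0.87 ± 0.22 (limma unadjusted p = 0.0010, adjusted p = 0.571), or 0.74 ± 0.16 without sheep 209 (limma adjusted p = 0.267). DESeq2 called it, with an adjusted p of 0.0275 and of 0.0311 without sheep 209, and over the other settings the adjusted p lay between 0.267 and 1.0. Without sheep 209 the layers also differed within prenatal T animals (-0.33 ± 0.12, limma adjusted p = 0.0267). Whether reads of the stretch that *BHLHE41* shares with *SSPN* enter these values is not known.

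*NR1D1* went the other way in value. Its granulosa to theca ratio was 0.216, 0.613, 0.632, 0.501 and 0.341 in prenatal T animals, against 0.747, 0.485, 1.02 and 0.694 in controls, and the groups overlapped. The difference of the effects was -0.73 ± 0.32 (limma unadjusted p = 0.0327, adjusted p = 0.919), or -0.49 ± 0.28 without sheep 209 (limma adjusted p = 0.622). For the other 8 members it lay between -0.40 and 0.63 (limma adjusted p = 0.959 to 0.996).

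**Figure D5:**
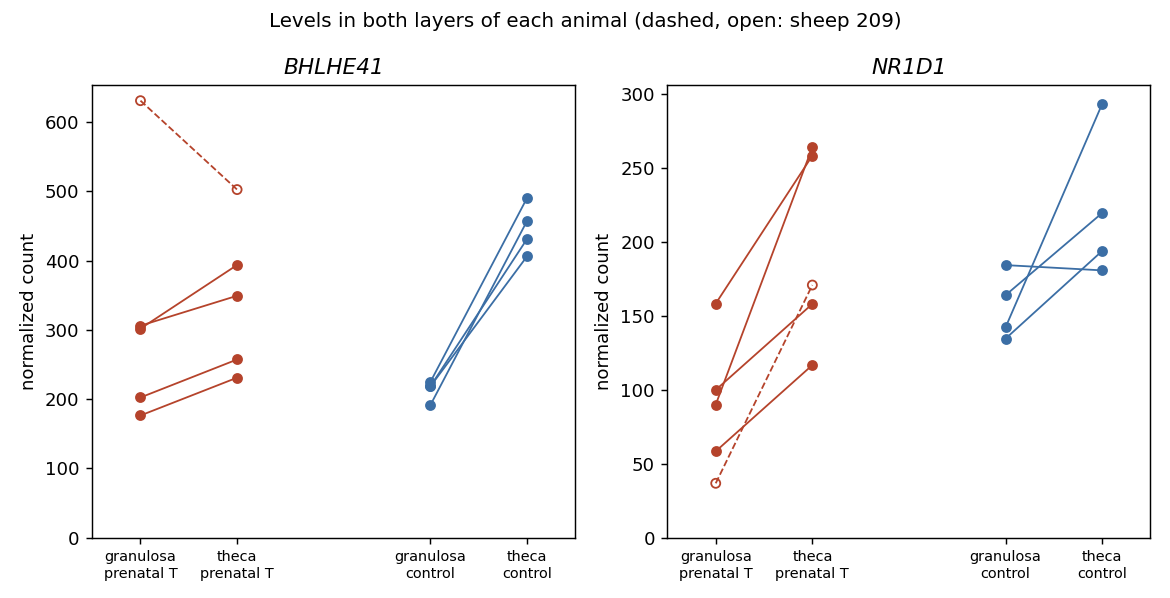
Normalized counts of *BHLHE41* (left) and *NR1D1* (right) in granulosa and theca cells of each animal, joined by a line, for prenatal T (red, sheep 209 open and dashed) and control animals (blue). The *BHLHE41* lines of prenatal T animals are flatter, with granulosa to theca ratios of 0.764 to 1.26, against 0.419 to 0.538 in controls.

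In granulosa cells 3 of 10 clock genes varied more between animals than the median gene, and in theca cells 3 of 10, or 4 and 5 without sheep 209. The pooled SD of log2 values within groups was 1.25 for *BHLHE40* in granulosa and 1.39 in theca cells, above 81.3% and 90.8% of genes, or 0.757 and 0.588 without sheep 209. For the other members it lay between 0.249 and 0.611 in granulosa cells and between 0.222 and 0.584 in theca cells, where the median gene had 0.507 and 0.413. *CLOCK* in theca cells had the smallest of these, 0.222.

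Whether an animal with a high value in granulosa cells had one in theca cells was described over the 9 animals with both layers, 10 relations in all. Pearson's r of the log2 levels passed after Benjamini-Hochberg adjustment (exact permutation) for 6 members, *BHLHE40* (0.90), *CRY2* (0.85), *NR1D2* (0.83), *CLOCK* (0.82), *PER3* (0.81) and *PER1* (0.71), with adjusted p of 0.0202 to 0.0455. The median gene had an r of 0.70, so these values are not particular to the clock. Spearman's rho of these 6 was 0.65 to 0.82 and none passed (smallest adjusted exact permutation p = 0.0691). None of the relations passed without sheep 209 (smallest adjusted p of r 0.0894) or without the 2 animals farthest from the median of a gene (0.159, exact permutation), over 8 and 7 animals. Without sheep 209 it was 0.74 for *PER1*, 0.76 for *CLOCK*, 0.75 for *NR1D2* and 0.70 for *PER3*, whereas it was 0.57 for *BHLHE40* and 0.51 for *CRY2*. Without the 2 farthest animals the r of these 6 lay between 0.56 (*NR1D2*) and 0.82 (*BHLHE40*).

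When each value was taken relative to its treatment group, *BHLHE41* and *CLOCK* passed both with and without sheep 209. The permutation of these deviations ran across treatment groups, whereas the deviations of a group are tied by its mean. Its p is therefore approximate, and the calls on deviations are descriptive. The r of *BHLHE41* was 0.93 (permutation p = 0.000830, adjusted 0.00415) and its rho 0.90 (adjusted permutation p = 0.0154), and without sheep 209 r was 0.90 (adjusted permutation p = 0.0167). The r of *CLOCK* was 0.90 (permutation p = 0.000152, adjusted 0.00152) and its rho 0.88 (adjusted permutation p = 0.0154), and without sheep 209 r was 0.88 (adjusted permutation p = 0.0117). With all 9 animals the r of *BHLHE40* (0.92), *PER3* (0.84), *NR1D2* (0.77) and *CRY2* (0.76) passed as well (adjusted permutation p = 0.00426 to 0.0397). Without sheep 209 these 4 were at 0.73, 0.78, 0.70 and 0.12 and did not pass (adjusted permutation p = 0.0814 to 0.852). The median gene had r of 0.71, or 0.58 without sheep 209. The lowest r was that of *NR1D1* with all animals (0.45) and that of *CRY1* without sheep 209 (0.03).

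The genes closest to 3 members were ranked among 16268 genes by the correlation of deviations from group means over 17 libraries without sheep 209, as a description with no test, in which both layers of an animal enter and libraries share their depth and scaling. For *PER1* they were *COASY* (0.89), *TAPBP* (0.87), *GHDC* (0.87), *SLC4A2* (0.86) and *RNF213* (0.85). For *NR1D1* they were *C12H1orf74* (0.87), *PIP4K2A* (0.87), *PPP1R18* (0.86), *NCOA2* (0.86) and *SNED1* (0.85). For *CRY1* they were *FDX1* (0.86), *NSF* (0.84), *KCNF1* (0.83), *SLC30A4* (0.82) and *GOT1* (0.81). With all libraries 5 of these 15 stayed on the lists.

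No other clock gene was among these nearest genes. *ARNTL2*, at rank 968, was the closest clock gene to *PER1* (r = 0.51). The clock gene closest to *NR1D1* was the D-box factor *HLF*, at rank 56 (r = 0.78), and *PER2* was at rank 480 (0.65), *RORA* at rank 600 (0.63) and *NR1D2* at rank 819 (0.60). *CRY1* had *ARNTL2* as its closest clock gene, at rank 653 (0.50), and *BTRC* as its most opposed (-0.70). Among pairs of members, again without sheep 209, the highest r were those of *NR1D2* with *BHLHE40* (0.68), *PER2* with *NR1D1* (0.65) and *PER2* with *PER3* (0.61), and the lowest were those of *BHLHE41* with *BHLHE40* (-0.66) and with *NR1D1* (-0.61). With all 19 libraries the sign turned for *NR1D2* with *BHLHE40* (-0.16) and for *BHLHE41* with *BHLHE40* (0.48). *PER2* with *NR1D1* (0.39) and with *PER3* (0.31) and *BHLHE41* with *NR1D1* (-0.74) kept theirs, and the extremes were then *NR1D1* with *NR1D2* (0.62) and *CRY2* with *BHLHE40* (-0.80).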

How the data were processed

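The authors deposited 1 table of normalized signal, in which each gene's count is divided by the library's size factor. Per the submitters' processing notes, the tools were STAR 2.6.0c, Subread 1.6.1 with featureCounts, DESeq2, FastQC 0.11.5 and MultiQC 0.9. The genome build and the strand setting of the counting are not given in the sources used here. Libraries were stranded and ribosomal RNA was removed, per the labels' protocols. The values of each library were whole multiples of 1 step (100% within a relative tolerance of 1e-06), which gave whole reads, 12.7 to 26.0 M per library. Granulosa cells of control sheep 139 were not analysed here, and 0 columns lacked a sample.

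A gene was tested if 5 or more libraries of a fit held a value of 10 or more. The test was limma 3.58.1 in R 4.3.3 on log2(value + 1), with the variance trended on the mean. Because of the added 1, fold changes of low genes are understated. Tests were two-sided, p was adjusted by Benjamini-Hochberg over all genes of a comparison, and the threshold was 0.05. Each layer was fitted alone for prenatal T against control. Layers and the difference of effects were fitted over all 19 libraries with the animal as a block, since the labels give both layers of an animal the same sheep number. Deviations from group means matched the animal's own other layer best in 9 of 9 animals (r between 0.42 and 0.80, over genes, which are not replicates). Among 36 pairs of libraries of the same group no repeat of 1 sample was found (smallest chi-square per degree of freedom 27.7). The alternatives were edgeR 4.0.16 and DESeq2 1.42.0 on recovered reads, a pseudocount of 5, TMM scaling, no filter, no block, and leaving out each animal. edgeR and DESeq2 without sheep 209, and the correlation of deviations without it, were chosen after seeing the data. Scripts were tested on simulated data.

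All 10 members were named, along with genes from a list of 18 other clock genes that passed or that a member was set beside (some of these are not reported here), and the 5 nearest genes of mean of at least 50 for *PER1*, *NR1D1* and *CRY1*. The members and lists were chosen with earlier results of these data known. Gene overlaps came from a RefSeq gene table of assembly ARS-UI_Ramb_v3.0, used for neighbours only.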

Additional observations from a re-analysis of the deposited data

Results flagged for a closer look

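In groups of 4 or 5 libraries, the highest or lowest value was set against the range of its group by Dixon's criterion. Of 40 groups of the 10 clock genes, 4 held such a value, and 3 of the 4 came from prenatal T sheep 209. The criterion is meant to mark about 5 of 100 groups of independent, normally distributed values. The values here were not on a log scale and the groups share animals, so that rate cannot be set against the 4.

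*BHLHE40*, the early response repressor, was at 4813 in the granulosa library of sheep 209. The other 4 prenatal T animals had 346.8 to 1094, and the gap took up 0.833 of the range. In the theca library of the same animal *BHLHE40* was at 3125, against 124.9 to 353.2 in the other prenatal T animals (0.924 of the range). *BHLHE41* was at 630.6 in the granulosa library of sheep 209, against 176.4 to 306 in the other prenatal T animals (0.715 of the range). These are the libraries in which the follicle markers *AMH*, *FSHR* and *CYP17A1* were at 0, and the part of that in the values was not tested.

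*PER3* was at 99.73 in granulosa cells of control sheep 268, where the other 3 controls had 51.31 to 58.45 (0.853 of the range).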

How the results depend on the processing

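Of the 10 clock genes, 8 passed between granulosa and theca cells under edgeR, DESeq2, a pseudocount of 5 and TMM scaling as with the settings reported, and 7 without the filter. Leaving out each animal gave 7 to 8 members, 5 to 8 in control animals alone (8 without sheep 209) and 5 to 7 in prenatal T animals alone. Without the animal as a block, the pairing by sheep was ignored and 5729 genes passed between layers in place of 9309, 3048 in prenatal T and 2691 in control animals.

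For prenatal T against control, no member passed under any setting. DESeq2 called 16 genes in granulosa cells (32 without sheep 209) and 9 in theca cells (57 without sheep 209), and 1 model of all libraries with the block called 1 in granulosa cells. For the difference of effects, DESeq2 called 16 genes (30 without sheep 209), each time with 1 member, *BHLHE41*. No filter called 2, and leaving out each animal gave 0 to 1. The causes were not tested.

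Differences that did not pass changed sign as follows. *CRY1* in granulosa cells was 0.062 by edgeR, 0.063 by DESeq2 and 0.0169 by limma without sheep 209, and -0.20 to 0.017 over the animals left out. In theca cells it was 0.0010 by edgeR and 0.0076 by DESeq2, 0.14 and 0.13 without sheep 209, and -0.17 to 0.11 over the animals left out. *BHLHE40* in theca cells was -0.23 by edgeR and by DESeq2 without sheep 209, and -0.26 to 0.90 over the animals left out. *CLOCK* in granulosa cells was -0.036 to 0.21, below 0 without control sheep 268. The correlation between layers passed for 0 members without sheep 209, for 0 without the 2 farthest animals and, by the approximate p on deviations, for 2 without sheep 209. With all libraries 5 of 15 nearest genes were shared. The count of members with a spread above that of the median gene was 5 in place of 3 in theca cells without sheep 209, and 4 in place of 3 in granulosa cells, where *BHLHE41* left and *PER1* and *PER3* entered. Other differences that did not pass moved with single animals but kept their sign: in granulosa cells *PER2* lay between -0.29 and -0.06 and *PER1* between -0.43 and -0.15, and in theca cells *NR1D1* lay between -0.35 and -0.06, *PER1* between -0.39 and -0.09, *PER2* between -0.70 and -0.27 and *PER3* between -0.71 and -0.30.

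*PER3* and *NR1D1* had as few as 17 and 32 reads in a granulosa library, both that of sheep 209, and each group held 4 or 5 animals. The planned promoter motif search was not run, because promoter sequences were not used here.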
